A study of Mus musculus with 2 samples.

Results

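Endocardial cells line the chambers of the heart, between the blood and the muscle. They were picked here by their own transcripts from right ventricles of mouse pups. A cell barcode counted as endocardial when it held at least 3 unique molecular identifiers (UMIs, each 1 captured RNA molecule) of Npr3, Smoc1, Tmem108 and Nrg1 together. It also needed at least 500 UMIs, at least 1 UMI of the general endothelial genes Pecam1, Cdh5, Ptprb and Emcn, at most 1 UMI of the lymphatic genes Prox1 and Mmrn1, and less than 2% of its UMIs from the muscle genes Ttn and Ryr2. This rule kept 1377 of 22183 barcodes, 167 in library 1 and 1210 in library 2. Capillary endothelial cells were the comparison class, with at least 3 UMIs of Flt1, Pecam1, Cdh5 and Ptprb and none of the 4 endocardial genes. They numbered 659 in library 1 and 1024 in library 2.

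The labels put both libraries in the same group. The C57/BL6J pups carried loxP-flanked alleles of CBP, p300 and Trap, received AAV9 on postnatal day 1 to knock out p300/CBP, and were killed on postnatal day 21. What drives the recombinase, which cells it reached and how many animals went into each library are not given in the sources used here. Frozen tissue was digested with collagenase, enriched for CD45-positive cells on magnetic beads and sequenced with 3' v3 droplet chemistry. There was no control library, so nothing below compares knockout with control, and every comparison is between cell classes of the same 2 libraries. The p-values therefore measure how class differences varied between these libraries, a spread that may be technical.

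Endocardium arises early in heart development and keeps a program of its own beside that of the coronary vessels. Its cells send neuregulin 1 (Nrg1) to ErbB receptors on the muscle, clear natriuretic peptides through the receptor Npr3, and in the embryo give rise to valve cushions and to part of the coronary endothelium. Capillary endothelium of the heart is known for taking up fatty acids for the muscle, through Cd36, Gpihbp1 and Fabp4.

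The endocardial share of barcodes with at least 500 UMIs was 1.31% in library 1 (95% Clopper-Pearson interval 1.12 to 1.52) and 12.9% in library 2 (12.2 to 13.6). These intervals cover counting error only. The mean was 7.09% ± 8.17 (SD, n = 2), so the spread between libraries was wider than the mean. Capillary cells made up 5.17% and 10.9% of the same barcodes. The libraries held 57982200 and 50199793 UMIs over 12736 and 9447 barcodes. Endocardial cells had medians of 2815 UMIs in library 1 and 3878.5 in library 2, against 1804 and 2672.5 in capillary cells. The libraries shared 17 barcode sequences, and 4 endocardial cells carried one of them.

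The rule set the levels of its own 13 genes, which are given as a description only. Levels are CPM, a gene's UMIs added up over all cells of a class in a library and scaled to the same total for every sum, and each pair of values gives library 1 and then library 2. In endocardial cells Npr3 stood at 1746 and 2149 CPM, Tmem108 at 1942 and 3036, Nrg1 at 1111 and 1531, and Smoc1, a matricellular protein, at 365 and 529. Npr3 was detected in 85.0% of endocardial cells of library 1 and 94.3% of library 2, and Nrg1 in 47.3% and 52.9%. All 4 genes were seen together in 38 cells of library 1 and 479 cells of library 2. Just inside the threshold, the 12 and 43 barcodes with 3 UMIs of these genes held 135 and 491 CPM of Cdh11 and 524 and 640 CPM of Vwf. Just outside it, the 24 and 124 otherwise passing barcodes with 2 UMIs held 36.0 and 242 CPM of Cdh11 and 144 and 149 CPM of Vwf.

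The label was checked against genes outside the rule, and transcripts of other cell types were found in many of the cells. In all, 67 of 167 endocardial cells in library 1 and 180 of 1210 in library 2 met no other class's gate; 58.1% and 84.5% reached the 3 UMIs of the fibroblast gate, against 11.8% and 29.6% of capillary cells. In library 2, 144 of 1210 endocardial cells (11.9%, interval 10.1 to 13.9) carried at least 5 UMIs of 8 markers of epicardium and mesothelium, the outer lining of the heart. In library 1, 4 of 167 did (2.40%, 0.656 to 6.02). The 144 cells held 1027 CPM of Msln, 1440 of Muc16 and 686 of Wt1, while the other endocardial cells of library 2 held 8.93, 3.70 and 35.7 CPM. These genes are among the markers that picked the 144 cells, so that contrast is built in. The endothelial transcripts of the 144 cells were low, with 250.5 CPM of Pecam1 and 207 of Vwf, against 1752 and 2272 CPM in the other endocardial cells of library 2. The 144 cells also had a median of 6404 UMIs, against 3684, though a fixed cut of 5 UMIs favours deeper cells. Counted apart from that mark, 12 cells of library 1 and 6 of library 2 carried at least 5 UMIs of 7 smooth muscle markers, and a few carried both marks. Without cells of either kind, 152 and 1061 endocardial cells remained. Counts and differences are therefore also given without cells of either kind in the compared classes, called unmarked cells, for each gene list set against capillary cells, and for single genes where the setting changes a call or where a gene is described in full. That setting, and genes named only for their call under it, were chosen after seeing the data.

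Summed over the marker lists, epicardial and mesothelial transcripts came to 334 and 1111 CPM in endocardial cells, against 131 and 121 in capillary cells. They came to 52.2 and 72.7 CPM in unmarked endocardial cells, which were picked for few UMIs of these markers. Fibroblast markers summed to 3972 and 4373 CPM in endocardial cells, against 2171 and 3675 in capillary cells and 15943 and 19616 in fibroblasts. Of 10 such markers, 5 were higher than in capillary cells and 1, Pdgfra, was lower at an adjusted p under 0.05 (median log2 difference 0.34); in unmarked cells 2 were higher and none was lower (median -0.13). An alternative setting left out endocardial cells at another class's gate, as the closing section gives. That setting picks cells by fibroblast genes, and beyond it their part in the results below was not tested. Smooth muscle markers summed to 1226 and 45.4 CPM in endocardial cells, against 150 and 104 in capillary cells. Cardiomyocyte markers summed to 11143 and 2076 CPM in endocardial cells and 12794 and 3137 CPM in capillary cells, so both classes carried more muscle RNA in library 1. Red cell markers summed to 5389 and 918 CPM, against 1673 and 1833. None of these 5 lists had a marker at 0 in endocardial cells. Lymphatic transcripts weighed on the other side: 5.92% and 13.3% of capillary cells held 2 or more UMIs of Prox1 and Mmrn1, which the endocardial rule does not allow. Where capillary cells with Prox1 and Mmrn1 UMIs are left out below, these are the cells meant. Capillary cells with 1 such UMI stayed in.

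Against capillary cells, 537 of 13693 genes tested were higher in endocardial cells (3.92%) and 492 were lower (3.59%). To be counted, a gene needed a difference of 2-fold or more with its adjusted p below 0.05, by edgeR's quasi-likelihood test on the summed counts with library as a block. In unmarked cells 419 of 13513 genes tested were higher and 525 lower. Of the 537, 343 were also among the 419, which is 63.9% of the first list and 81.9% of the second. Leaving out a library dropped only its endocardial and compared-class sums, which left 1 sum of each. The other classes of both libraries stayed in the fit and alone gave the spread. Adjusted p-values given below without a library therefore do not measure how the comparison itself varied between libraries. Fewer genes were called in either of these fits, as the closing section gives. Lists below count genes at an adjusted p under 0.05 alone, which 4.46% of all genes passed as higher and 4.37% as lower. In unmarked cells 485 of all 13513 genes passed as higher and 620 as lower, with a median log2 difference of -0.04. All adjusted p-values are edgeR's with Benjamini-Hochberg adjustment over all genes tested, and "±" on a log2 difference is its standard error.

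Known endocardial genes outside the rule were mostly higher. Of 22 tested, 15 were higher, 1 was lower and 6 did not pass, with a median log2 difference of 1.75, against -0.02 over all genes. The counts were the same in unmarked cells, with a median of 1.79. The list was chosen with earlier results of these data known, so its direction is a description.

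Cdh11, a cadherin of mesenchymal and endocardial cells, had 930 and 1697 CPM in endocardial cells, against 10.2 and 57.7 CPM in capillary cells. Both summed endocardial values lay above both summed capillary values. The log2 difference was 5.56 ± 0.42 (adjusted p = 3.58e-05), and 5.73 in unmarked cells. Cdh11 lies at chr8:102632095-102785642 on the minus strand of GRCm38. It was detected in 45.1% and 70.6% of endocardial cells once each cell was thinned to 1000 UMIs, against 1.20% and 4.66% of capillary cells. Unthinned, the shares were 71.3% and 91.9%, against 1.97% and 12%. Macrophages, with median depths of 1544.5 and 2703 UMIs, gave thinned shares of 0.943% and 4.71%, close to the capillary shares. Whether these low shares are background was not tested.

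Vwf, the carrier of clotting factor VIII and the glue for platelets, had 1451 and 1862 CPM in endocardial cells, against 125 and 221 CPM in capillary cells (log2 difference 3.34 ± 0.40, adjusted p = 0.000426). Hmcn1, which encodes the matrix protein hemicentin 1, had 2540 and 4018 CPM, against 328 and 570 CPM (2.87 ± 0.35, adjusted p = 0.000424). Plvap, which forms the diaphragms of endothelial fenestrae and caveolae, had 125 and 186 CPM, against 6.13 and 18.5 CPM (3.64 ± 0.26, adjusted p = 2.18e-05). In each of these genes both endocardial values lay above both capillary values. Cytl1, which encodes a small secreted protein, had 472 and 296 CPM, against 53.8 and 39.5 CPM, a log2 difference of 3.05.

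Among the transcription factors on the endocardial list, Hand2 had 66.9 and 48.5 CPM in endocardial cells, against 6.81 and 8.66 in capillary cells (log2 difference 2.77, adjusted p = 0.000391). Foxc1 had 123 and 164 CPM, against 19.1 and 32.0 (2.49, adjusted p = 0.000819). Gata4 had 178 and 297 CPM, against 87.2 and 64.3 (1.69, adjusted p = 0.0138), and without library 2 its adjusted p was 0.441. Nfatc1, a classical marker of embryonic endocardium and valve cells, did not pass. It had 60.0 and 88.4 CPM in endocardial cells, against 88.6 and 159 in capillary cells, with a log2 difference of -0.70 ± 0.26 (adjusted p = 0.155). When capillary cells with 2 or more Prox1 and Mmrn1 UMIs were left out, that difference was 0.10. Sox18, shared with lymphatic endothelium, was the 1 listed gene that was lower, at 22.3 and 16.2 CPM, against 66.1 and 56.3 CPM. Its log2 difference was -1.76 (adjusted p = 0.01), and its adjusted p was 0.0552 without library 1 and 0.322 without library 2.

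**Figure D1:**
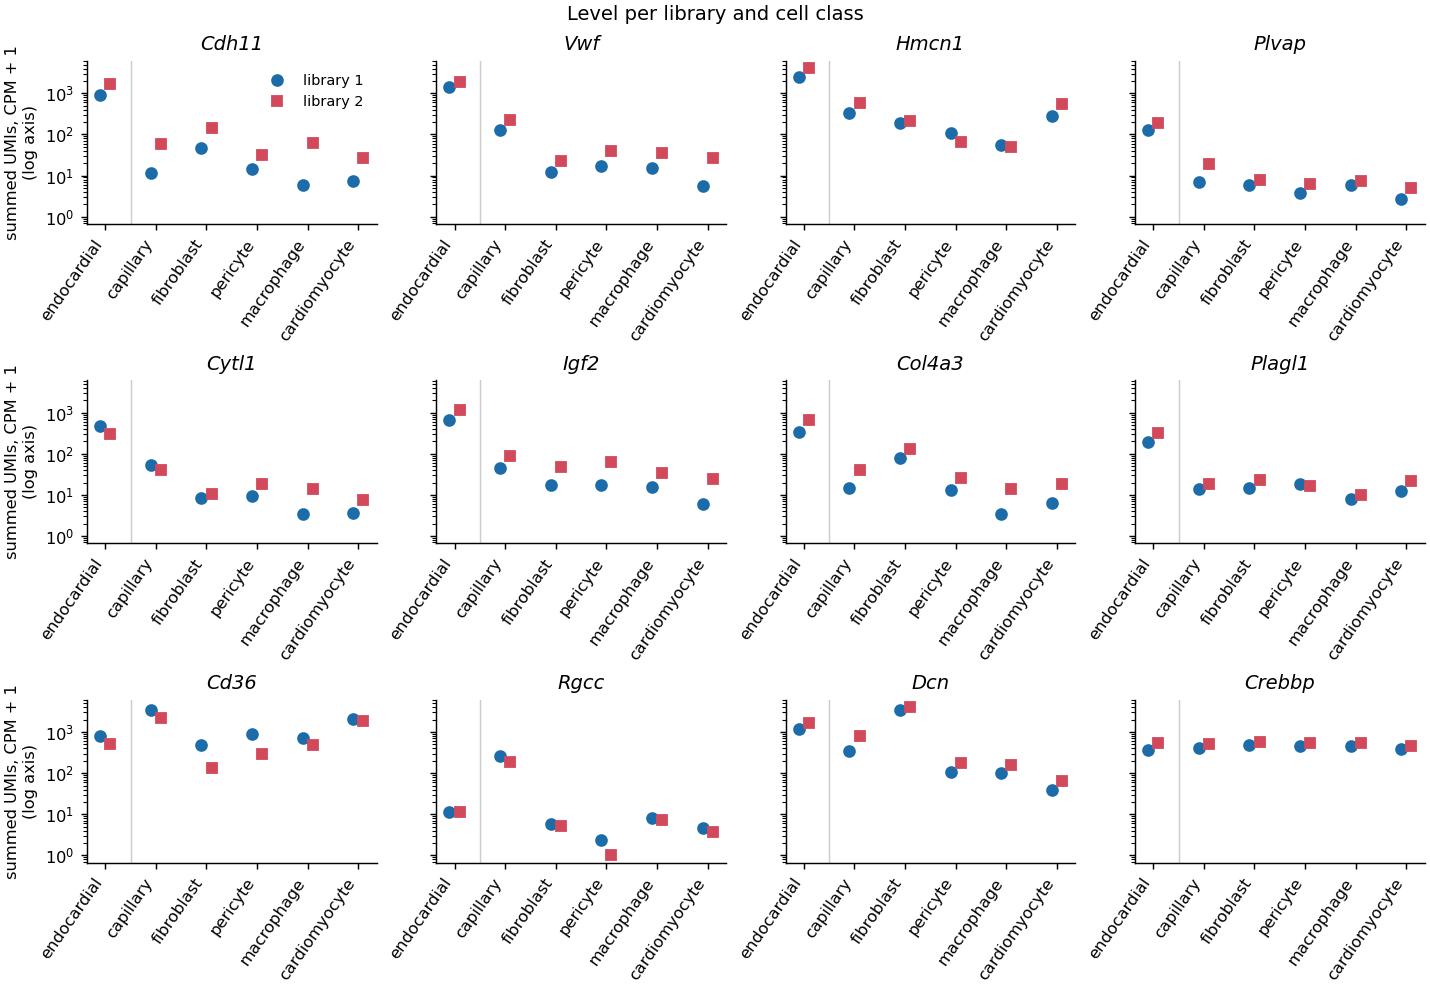
Level of 12 genes in 6 cell classes, as CPM of summed UMIs plus 1 on a log axis, with 1 point per library. Cdh11, Vwf, Hmcn1, Plvap, Cytl1, Igf2, Col4a3 and Plagl1 had their highest points in endocardial cells, Cd36 and Rgcc in capillary cells and Dcn in fibroblasts, and Crebbp lay between 364 and 586 CPM in every class.

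By the rule for naming genes, 15 with the largest positive differences were singled out, and 8 of them were not called in unmarked cells. Of those, Gm29266, Fras1 and Muc16 did not pass there, and Lrp2, Bmpr1b, Il18r1, Upk1b and Tmem151a were too low to be tested. Without library 2, Gm29266, Lrp2, Il18r1, Upk1b and Tmem151a had adjusted p-values from 0.0588 to 0.145. Muc16 had 68.6 and 289 CPM in endocardial cells, against 8.18 and 6.35 in capillary cells, a log2 difference of 4.75, and -0.70 in unmarked cells. Muc16 and Upk1b are on the list that marked the cells, so their lower level there is built in. Gm29266 gave 5.04, and 0.64 in unmarked cells. Fras1, a basement membrane protein of epithelia, gave 4.80, and 1.43 in unmarked cells.

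The other 7 passed in unmarked cells too: Cdh11, Ptgs2, Tuft1, Mal, A930011G23Rik, 4932413F04Rik and Gm16226. Ptgs2, the inducible cyclooxygenase that makes prostaglandin precursors, had 27.4 and 21.7 CPM in endocardial cells, against 0.681 and 0.289 CPM in capillary cells, where it rested on 2 UMIs. The ratio was 54.7, with an exact interval from 14.9 to 456 that covers counting error only. Its adjusted p was 0.00178, and 0.0774 without library 2. Tuft1 had 61.7 and 159 CPM, against 2.04 and 6.35 CPM (log2 difference 4.68, adjusted p = 1.62e-05). Mal, a membrane protein of polarized vesicle transport, had 58.3 and 59.4 CPM, against 1.36 and 2.89 CPM (4.63, adjusted p = 0.00119, and 0.0899 without library 2). A930011G23Rik had 422 and 854 CPM, against 31.3 and 11 CPM (5.03, adjusted p = 0.000111). The remaining pair, 4932413F04Rik and Gm16226, are annotated as antisense transcripts; no source used here says whether counting used strand, so their reads may belong to the opposite gene. Gm16226 lies on the plus strand of chromosome 5 within A930011G23Rik, which is on the minus strand, so these 2 results may share reads. They had 1 and 2 UMIs in capillary cells, and without library 2 their adjusted p-values were 0.0794 and 0.0532.

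**Figure D2:**
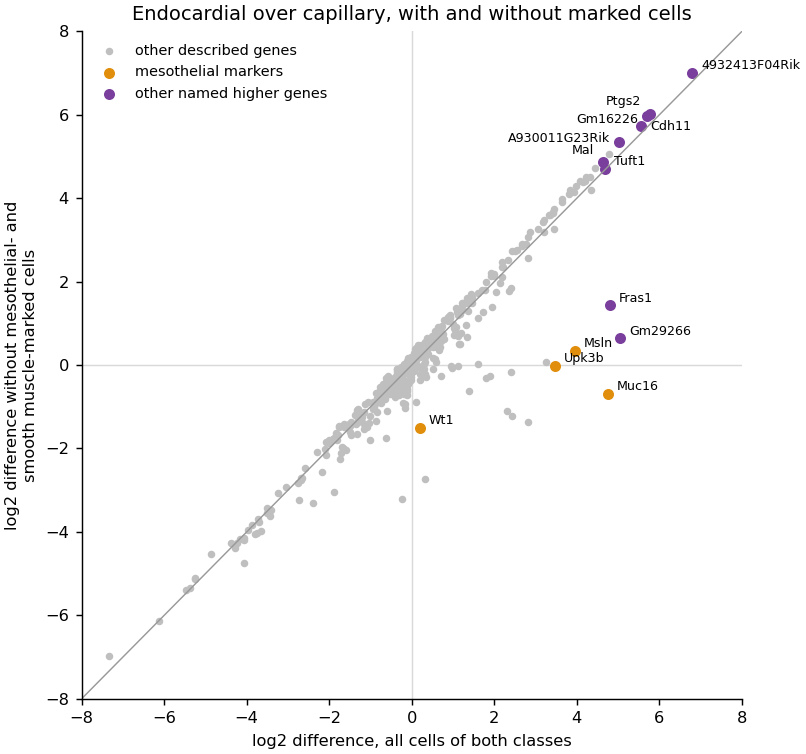
Log2 difference of endocardial over capillary cells for the described genes tested in both settings, with all cells on the horizontal axis and without mesothelial- and smooth muscle-marked cells on the vertical axis; the line marks equal values. Cdh11, Ptgs2, Tuft1 and Mal lie near the line, while Muc16, Fras1 and Gm29266 lie far below it, at -0.70, 1.43 and 0.64 without the marked cells.

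Type IV collagen, the sheet-forming collagen of basement membranes, differed between the 2 endothelial classes in the amounts of its chains. These genes were chosen after their values were seen. Col4a3 had 346 and 665 CPM in endocardial cells, against 13.6 and 39.0 in capillary cells (log2 difference 4.32 ± 0.27, adjusted p = 1.62e-05). Col4a4 had 497 and 915 CPM, against 16.4 and 66.9 CPM (4.19 ± 0.32, adjusted p = 3.82e-05). Both kept their call in unmarked cells, at 4.50 and 4.41, and with either library left out. The widespread chains Col4a1 and Col4a2 were lower with both libraries in the fit. Col4a1 had 345 and 299 CPM, against 779 and 697 CPM (-1.21 ± 0.24, adjusted p = 0.00782), and Col4a2 had 209 and 158 CPM, against 599 and 434 CPM (-1.51 ± 0.23, adjusted p = 0.00179). Without library 2 their adjusted p-values were 0.161 and 0.0502, and without library 1 that of Col4a1 was 0.0918. Col4a5, the usual partner of the alpha 3 and alpha 4 chains, had 194 and 132 CPM, against 68.8 and 76.2 CPM, and did not pass (1.11, adjusted p = 0.0607). Thinned to 1000 UMIs, Col4a3 was detected in 26.8% and 43.8% of endocardial cells, against 0.856% and 2.33% of capillary cells and 0.472% and 0.784% of macrophages. Fibroblasts held more, with Col4a3 in 6.75% and 10.3% of them. Col4a4 was in 13.4% and 18.3% of fibroblasts, against 37.8% and 56.8% of endocardial cells.

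Col4a3 and Col4a4 sit head to head on chromosome 1. On GRCm38, Col4a3 runs on the plus strand from 82586921 to 82722059 and Col4a4 on the minus strand from 82448423 to 82586849, so 71 bases separate their starts. That stretch is shown because both members of the pair were higher together. It is RefSeq sequence of GRCm38.p6 at chr1:82586850-82586920, written 5' to 3' on the strand of Col4a4. Capitals mark CACCC on either strand, which here reads GGGTG.
Col4a3-Col4a4: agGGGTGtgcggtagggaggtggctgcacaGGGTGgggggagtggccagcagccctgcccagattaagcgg
These letters occur in 20.3% of all 32851 RefSeq windows of 71 bases next to a start, and in 52.0% of windows of 250 bases. The CCAAT box was also searched for on both strands, and so were AGATAA, which holds the core of a GATA site, and the ETS site core written GGAAGT. None of these letters is in this stretch; 2.47% of windows of 71 bases hold AGATAA and 7.79% hold GGAAGT. The letters searched were chosen after the sequences were seen. Col4a1 and Col4a2 are also head to head, on chromosome 8, where their annotations share 22 bases.

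The 250 bases before the starts of Hmcn1 and Ptgs2, both on chromosome 1, are shown as starts of genes that were higher in endocardial cells. Hmcn1 lies at chr1:150562524-150993435 on the minus strand, and its window is chr1:150993436-150993685. Ptgs2 lies at chr1:150100031-150108227 on the plus strand, and its window is chr1:150099781-150100030. Capitals mark CCAAT and CACCC on either strand in the first, and TTGCGCAA, a C/EBP site that reads the same on both strands, in the second.
Hmcn1: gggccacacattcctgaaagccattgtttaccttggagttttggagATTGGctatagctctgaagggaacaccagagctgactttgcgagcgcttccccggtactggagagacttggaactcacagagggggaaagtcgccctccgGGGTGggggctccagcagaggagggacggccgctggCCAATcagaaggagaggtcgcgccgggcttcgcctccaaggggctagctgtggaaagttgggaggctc
Ptgs2: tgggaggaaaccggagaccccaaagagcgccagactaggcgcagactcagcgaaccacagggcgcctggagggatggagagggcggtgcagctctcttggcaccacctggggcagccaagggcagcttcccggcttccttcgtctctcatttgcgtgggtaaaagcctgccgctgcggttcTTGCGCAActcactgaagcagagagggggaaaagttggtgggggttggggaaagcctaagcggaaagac
CCAAT is in 33.8% of all windows of this length and TTGCGCAA in 0.164%. AGATAA, which 9.99% of windows hold, and GGAAGT, which 19.7% hold, are in neither. A match describes the letters and does not show binding.

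The imprinted genes described next were again chosen after their values were seen. Of these 5, 3 were higher, 1 was lower and 1 did not pass, while 4.46% of all genes tested were higher and 4.37% lower. Cdkn1c, Peg3, Grb10 and Meg3 were looked at too but are not described in the text. The count therefore says nothing about imprinted genes as a group. Igf2, a fetal growth factor, had 648 and 1182 CPM in endocardial cells, against 44.3 and 89.2 CPM in capillary cells (log2 difference 3.83 ± 0.32, adjusted p = 5.51e-05). H19, the noncoding RNA from the neighbouring imprinted locus, had 532 and 526 CPM, against 26.6 and 43.6 CPM (3.99 ± 0.34, adjusted p = 5.98e-05). Plagl1, an imprinted transcription factor of growth control, had 190 and 320 CPM, against 12.9 and 17.6 CPM (4.07 ± 0.23, adjusted p = 1.48e-05). In unmarked cells the 3 differences were 4.20, 4.30 and 4.41. Igf2r, which clears IGF2, had 393 and 433 CPM, against 289 and 214 CPM, and did not pass (0.74, adjusted p = 0.112). Mest was lower, with 13.7 and 24.3 CPM, against 47.0 and 54.8 CPM (-1.33, adjusted p = 0.00725, 0.1 without library 1 and 0.177 without library 2). Thinned to 1000 UMIs, Igf2 was detected in 39.0% and 53.7% of endocardial cells, against 4.28% and 8.91% of capillary cells and 1.89% and 3.92% of macrophages.

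**Figure D3:**
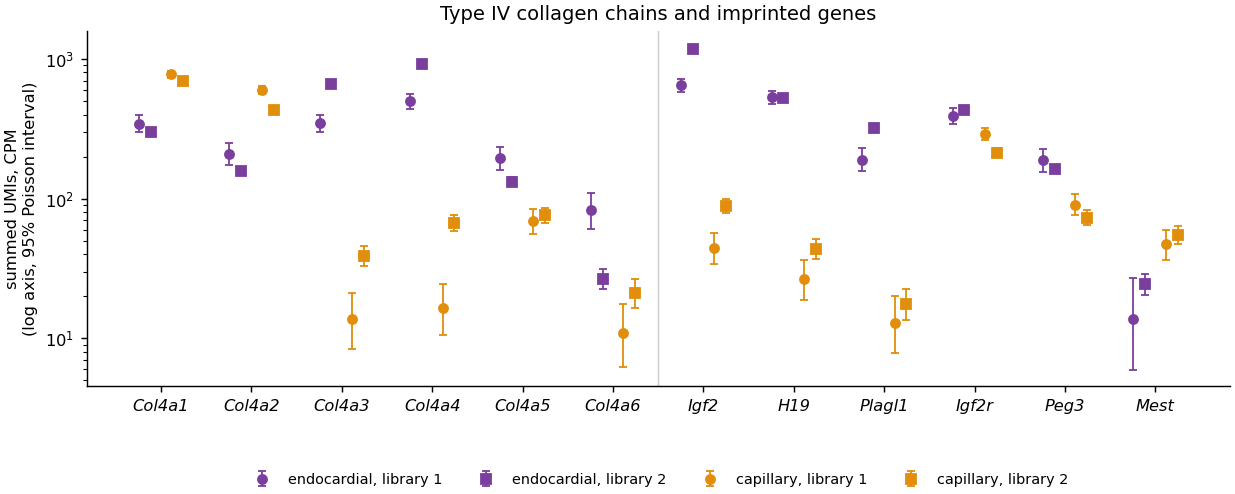
Levels of 6 type IV collagen chains and 6 imprinted genes in endocardial and capillary cells, as CPM on a log axis with exact Poisson intervals, 1 point per library. Endocardial points lie above capillary points for Col4a3 and Col4a4 and below them for Col4a1 and Col4a2, and Igf2, H19 and Plagl1 lie higher in endocardial cells in both libraries.

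Endocardial cells also held more RNA of a pair of signalling and junction genes that no list here covers, singled out after their values were seen. Chrm3, the M3 muscarinic acetylcholine receptor, had 1377 and 2035 CPM, against 70.9 and 200.3 CPM in capillary cells (log2 difference 3.8, adjusted p = 0.000409). Thinned to 1000 UMIs, 14.0% and 15.1% of fibroblasts also held Chrm3, against 58.5% and 67.3% of endocardial cells. Cgnl1, which encodes the junction protein paracingulin, had 1271 and 1978 CPM, against 150 and 195 CPM (3.21, adjusted p = 0.000367). Both kept their call in unmarked cells and without either library.

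The capillary program was largely low. Of 25 capillary genes tested, 21 were lower in endocardial cells, 2 were higher and 2 did not pass, with a median log2 difference of -2.11. In unmarked cells 20 were lower and 2 higher (median -2.08). Rgcc, a cell cycle regulator of capillary cells, had 10.3 and 10.5 CPM in endocardial cells, against 264 and 184 CPM in capillary cells (-4.29 ± 0.22, adjusted p = 1.48e-05). Timp4, a metalloproteinase inhibitor, had 10.3 and 7.16 CPM, against 199 and 117 CPM (-4.16 ± 0.31, adjusted p = 5.07e-05). Btnl9 gave -4.06 and Car4, a carbonic anhydrase on the capillary surface, -3.97. The higher pair were Ednrb, an endothelin receptor (1.93, adjusted p = 0.0169, and 0.208 without library 2), and Fabp5 (1.91, adjusted p = 0.00952, and 0.0855 without library 2).

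Of 22 fatty acid handling genes tested, 10 were lower, 1, Fabp5, was higher and 11 did not pass, with a median of -0.54. Some members, Cd36, Gpihbp1, Pparg, Meox2 and Fabp5 among them, also stand on the capillary list. Gpihbp1, which holds lipoprotein lipase on the capillary wall, had 30.9 and 19.4 CPM in endocardial cells, against 347 and 200.3 CPM in capillary cells (log2 difference -3.43, adjusted p = 0.000106). Pparg, a nuclear receptor that drives fatty acid genes, had 22.3 and 29.2 CPM, against 396 and 400.2 CPM (-3.88, adjusted p = 0.000341). Meox2, which activates fatty acid uptake genes in heart capillaries, had 29.2 and 68.8 CPM, against 446 and 625 CPM (-3.50, adjusted p = 6.28e-05). Cd36 was lower but still abundant, at 792 and 519 CPM, against 3385 and 2243 CPM (-2.11, adjusted p = 0.00599). Without library 1 its adjusted p was 0.0589 and without library 2 it was 0.122. In unmarked cells the list counts were again 10 and 1.

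The 12 named genes that were lower fell into 2 kinds, told apart when capillary cells with 2 or more Prox1 and Mmrn1 UMIs were left out. Cldn5, the tight junction claudin of endothelium, had 15.4 and 9.25 CPM in endocardial cells, against 232 and 212 CPM (log2 difference -4.39, adjusted p = 0.000103). Cldn5, Rgcc, Timp4, 4930578C19Rik, Gm12002, an antisense transcript with the limit above, and Fam124b stayed between -3.63 and -4.81 when capillary cells with Prox1 and Mmrn1 UMIs were left out; without library 2 the adjusted p of Fam124b was 0.203. The others did not hold. Under that setting Ccl21a, a lymphatic chemokine whose symbol 2 features share, gave -0.55, against -5.47 with all capillary cells. Reln gave -0.14, against -5.38. Tc2n gave -0.23, against -5.25, and Apba2 -0.24, against -4.07. A830019P07Rik gave -2.25 (adjusted p = 0.121) and Dtx1 was no longer among the genes tested. Without library 2, Reln, Tc2n, Apba2, A830019P07Rik and Dtx1 had adjusted p-values from 0.179 to 0.672.

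Genes of vessel identity were mixed. Of 14 arterial genes, 6 were lower, 1 was higher and 7 did not pass, with a median of -1.10. In unmarked cells 7 were lower and 1 higher (median -1.64). Sox17 had 6.86 and 5.94 CPM in endocardial cells, against 60.0 and 54.0 CPM (log2 difference -3.25, adjusted p = 0.000623, and 0.0871 without library 2), and Cxcl12 gave -2.76. The higher one was Bmx, a cytoplasmic tyrosine kinase, at 211 and 308 CPM, against 28.6 and 54.5 CPM (2.68, adjusted p = 0.000514). Of 8 venous genes, 2 were higher, 2 were lower and 4 did not pass (median 0.62), while in unmarked cells 3 were higher and 1 was lower (median 0.84). Vcam1, an adhesion molecule for leukocytes, had 295 and 344 CPM, against 35.4 and 60.0 CPM (2.81, adjusted p = 0.000341). Aplnr, the apelin receptor, had 6.86 and 6.64 CPM, against 123 and 86.3 CPM (-3.81, adjusted p = 2.18e-05). None of 8 valve genes passed (median -0.11), and in unmarked cells 1 of 9, Klf4, was lower (median 0.07). Of 8 lymphatic genes, 4 were lower and none was higher (median -1.61). In unmarked cells 6 were lower and none was higher (median -2.60). The endocardial rule limits Prox1 and Mmrn1 and the capillary rule does not, so lower lymphatic genes are partly built in. Over the settings run, the median of this list ranged from -2.60 to 0.27. Without the Prox1 and Mmrn1 capillary cells Reln gave -0.14, Flt4 -0.74 and Pard6g 0.27, against -5.38, -2.58 and -1.90 with them.

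**Figure D4:**
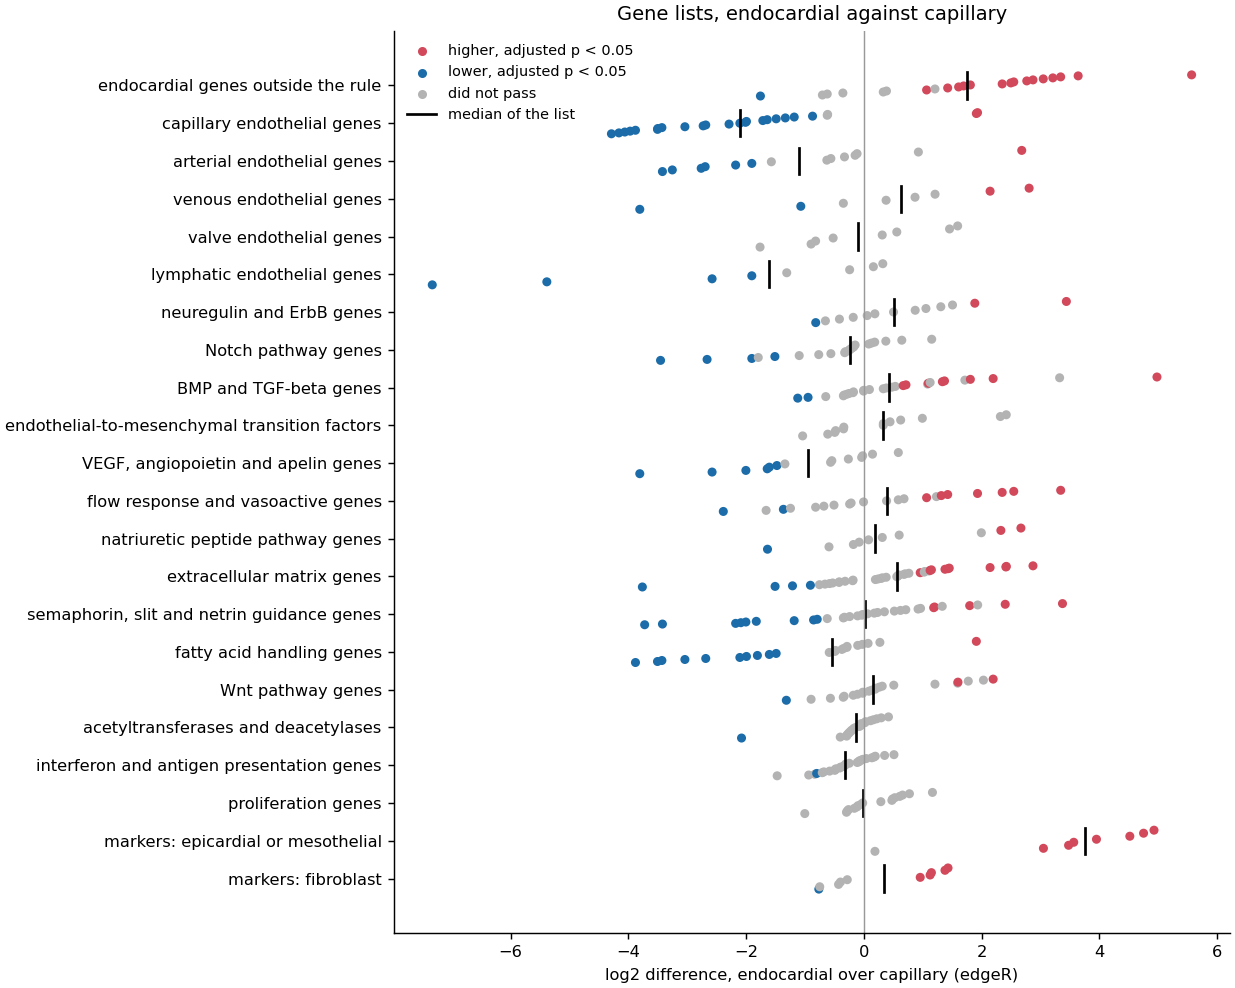
Log2 difference of endocardial over capillary cells for each tested gene of 22 lists, with the list's median as a bar. Red points were higher and blue points lower at an adjusted p under 0.05; capillary and fatty acid genes have medians below 0, endocardial genes and mesothelial markers have medians above 0, and the medians over these run from -2.11 to 3.76.

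Signalling from the endocardium was described by its pathways. Nrg1 belongs to the rule, so of the neuregulin and ErbB genes 13 others were tested, with 2 higher, 1 lower and a median of 0.50. In unmarked cells none of 12 was higher and 2, Adam19 and Errfi1, were lower (median 0.06). The higher pair were Nrg2 and Nrg3, and neither passed in unmarked cells. Nrg2 gave 1.88, and -0.26 in unmarked cells; Nrg3 gave 3.44, and 3.25 there (adjusted p = 0.0702). Adam19, a protease that can shed neuregulins, gave -0.82 (adjusted p = 0.0271), and its adjusted p was 0.0918 without library 1 and 0.532 without library 2. Without library 2 the adjusted p of Nrg2 was 0.784, and that of Nrg3 was 0.14, against 0.253 without library 1.

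Notch genes had 4 lower members of 23 tested and none higher (median -0.24), and in unmarked cells 5 were lower (median -0.13), the added one being Notch3. The ligands Jag2 and Dll4 gave log2 differences of -3.45 and -1.90, and the fringe enzymes Mfng and Lfng, which tune ligand choice, gave -2.66 and -1.51. Jag2 had 3.43 and 4.19 CPM in endocardial cells, against 55.2 and 40.1 CPM. Without library 2 the adjusted p-values of these 4 lay between 0.055 and 0.447, and without library 1 Dll4 and Lfng had 0.0605 and 0.141.

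BMP and TGF-beta genes leaned the other way, with 8 of 28 higher and 2 lower (median 0.43), and 8 of 27 and 2 in unmarked cells (median 0.55). Smad6, an inhibitor of BMP signalling, had 314 and 534 CPM in endocardial cells, against 92.7 and 149 CPM (log2 difference 1.81 ± 0.23, adjusted p = 0.000573). Id2, a BMP target, had 110 and 177 CPM, against 35.4 and 28.6 CPM (2.19, adjusted p = 0.00105, and 0.107 without library 2). Eng, the co-receptor endoglin, had 1645 and 1535 CPM, against 654 and 598 CPM (1.33, adjusted p = 0.0193, and 0.116 without library 2). The receptors Acvr1 and Bmpr1a gave 1.09 and 1.37; Acvr1 did not pass without library 1 (adjusted p = 0.0588) or without library 2 (0.0548), and Bmpr1a not without library 2 (0.211). Bmpr1b gave 4.98 with all cells, and in unmarked cells it was no longer among the genes tested. Smad1 and Id1 were lower, at -1.12 and -0.95, and neither passed without library 1 (adjusted p = 0.08 and 0.419) or without library 2 (0.19 and 0.0973). No gene among 13 transition factors of the endothelial-to-mesenchymal kind passed with all cells (median 0.33). In unmarked cells 1 of 12, Vim, was higher and the median was below 0, at -0.43.

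VEGF, angiopoietin and apelin genes had 6 lower members of 14 and none higher (median -0.95), and the counts were the same in unmarked cells (median -0.86). Kdr, the main VEGF receptor, had 87.5 and 129 CPM in endocardial cells, against 337 and 327 CPM (log2 difference -1.64, adjusted p = 0.00153). Nrp2, a co-receptor, had 130 and 160.5 CPM, against 539 and 619 CPM (-2.0, adjusted p = 0.00108). Flt4, the lymphatic VEGF receptor, gave -2.58, and -0.74 without the Prox1 and Mmrn1 capillary cells (adjusted p = 0.0814 without library 2).

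Flow response and vasoactive genes had 7 higher and 2 lower of 21 (median 0.39). In unmarked cells 8 were higher and 4 lower (median 0.61). Beside Vwf, enzymes of prostacyclin synthesis were higher. Ptgs1, the constitutive cyclooxygenase, had 283 and 314 CPM in endocardial cells, against 50.4 and 51.9 CPM (log2 difference 2.54, adjusted p = 0.00087), and Ptgis, prostacyclin synthase, had 216 and 197 CPM, against 28.6 and 51.9 CPM (2.35, adjusted p = 0.00167). Ptgis also occurs in fibroblasts, at 122 and 241 CPM. Of the endothelin axis, Edn1 gave 1.06 and its converting enzyme Ece1 1.42, but neither passed without library 1 (adjusted p = 0.14 and 0.118) or without library 2 (0.371 and 0.163). Tfpi, an inhibitor of clotting, gave 1.31 (adjusted p = 0.000877, and 0.0699 without library 2). The lower pair were F8, at -1.37, and Piezo2, at -2.39, which gave -0.52 without the Prox1 and Mmrn1 capillary cells; their adjusted p-values without library 2 were 0.369 and 0.529.

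Beside Npr3, which the rule used, 10 genes of the natriuretic peptide pathway were tested, with 2 higher, 1 lower and a median of 0.20, and the same counts in unmarked cells (median 0.35). Prkg1, the cGMP-dependent kinase, had 4080 and 5752 CPM in endocardial cells, against 712 and 1268 CPM (log2 difference 2.33, adjusted p = 0.000971). Pde3a, a phosphodiesterase that cGMP inhibits, had 1580 and 2203 CPM, against 313 and 278 CPM (2.67, adjusted p = 0.000535). Pde2a, which cGMP activates, had 94.3 and 84.7 CPM, against 362 and 227 CPM (-1.64, adjusted p = 0.00528, 0.102 without library 1 and 0.0754 without library 2). The peptide Nppa itself split by library, with 2218 and 11.5 CPM in endocardial cells, against 449.6 and 3.46 CPM in capillary cells. That gap between libraries was wider than the gap between classes, and the difference did not pass (1.99, adjusted p = 0.259).

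Extracellular matrix genes had 10 higher and 4 lower of 38 tested (median 0.57), and 6 higher and 4 lower of 38 in unmarked cells (median 0.11). Col23a1, a membrane collagen, had 165 and 278 CPM in endocardial cells, against 25.2 and 58.3 CPM (log2 difference 2.42, adjusted p = 0.000153). Dcn, the proteoglycan decorin, had 1199 and 1633 CPM, against 355 and 787 CPM (1.38, adjusted p = 0.0034, and 0.102 without library 1). Dcn belongs to the fibroblast gate that most endocardial cells reached, and when members at another gate were left out, Dcn gave -0.96 by construction. Dcn, Lum, Col1a1, Col1a2 and Col3a1 were the 5 higher fibroblast markers. Pdgfra, the 1 that was lower, stood at 49.7 and 56.7 CPM in endocardial cells, against 65.4 and 115 CPM in capillary cells and 608 and 644 CPM in fibroblasts (-0.77, adjusted p = 0.0484). It did not pass without library 1 (adjusted p = 0.0719) or without library 2 (0.653). Col3a1 gave 1.12, and -0.03 in unmarked cells. Npnt gave 2.41, and -0.16 in unmarked cells. Without library 1 the adjusted p-values of Col3a1 and Npnt were 0.175 and 0.162, and without library 2 that of Col3a1 was 0.053. Tnc was lower at -3.76, and -1.20 without the Prox1 and Mmrn1 capillary cells (adjusted p = 0.117 without library 2).

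Guidance genes had 5 higher and 9 lower of 32 (median 0.02), and 3 and 8 of 31 in unmarked cells (median -0.09). Slit3, a secreted guidance cue, had 710 and 986 CPM in endocardial cells, against 119 and 201 CPM (log2 difference 2.40, adjusted p = 0.000401). Sema7a had 6.86 and 8.90 CPM, against 131 and 96.1 CPM (-3.72, adjusted p = 0.000132), and Sema3g gave -3.42. Sema3e gave 3.37 (adjusted p = 0.591 without library 2), and in unmarked cells it was no longer among the genes tested. Wnt genes had 2 higher (Fzd1 and Wnt5a) and 1 lower (Tcf4) of 22 (median 0.16), and in unmarked cells 1 was higher and 1 lower of 23 (median 0.07), with Wnt5a at 0.02. Without library 2 the adjusted p-values of these 3 were 0.304, 0.656 and 0.0999, and without library 1 those of Wnt5a and Tcf4 were 0.0581 and 0.0811. Interferon and antigen presentation genes had 1 lower of 28 (Tap2, at -0.80, with a list median of -0.32; its adjusted p was 0.359 without library 1 and 0.203 without library 2). In unmarked cells none of 28 passed (median -0.34). None of 17 proliferation genes passed with all cells (median -0.02) or in unmarked cells (median -0.11).

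The targeted genes were measured in the endocardial cells too. Ep300, which encodes p300, had 135 and 167 CPM, against 139 and 174 CPM in capillary cells (log2 difference -0.05 ± 0.17, adjusted p = 0.946). Crebbp, which encodes CBP, had 364 and 533 CPM, against 416 and 522 CPM (-0.08 ± 0.17, adjusted p = 0.897). Reads at the 3' end may lie outside the deleted part, and with no control library these levels check nothing about a deletion. The GFP feature had 5.15 and 2.79 CPM in endocardial cells, 5.45 and 4.04 in capillary cells and 36.2 and 32.8 in cardiomyocytes. Of 23 acetyltransferases and deacetylases, 1 was lower and none was higher (median -0.14), with the same counts in unmarked cells. It was Hdac9, at 111 and 54.7 CPM, against 369 and 282 CPM (-2.08, adjusted p = 0.0137, 0.0622 without library 1 and 0.313 without library 2).

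The cells also differed among themselves. Grouped by how many of the 4 rule genes were detected, from 1 to 4, library 2 had 59, 264, 408 and 479 cells. Cdh11 in these groups stood at 904, 1352, 1603 and 2055 CPM, Hmcn1 at 1150.3, 2240.5, 4272 and 5143 CPM, and Vwf at 608, 943, 1897 and 2488 CPM. Library 1, with 14, 52, 63 and 38 cells, gave 18.6, 713, 961 and 1587 CPM of Cdh11. Msln ran the other way in library 2, at 951, 483, 113 and 46.7 CPM, and showed no such order in library 1, at 55.7, 27.0, 86.9 and 7.98 CPM. The 144 mesothelial-marked cells of library 2 held 1168 UMIs of Msln, against 41 in the other endocardial cells. They held less Cdh11, Hmcn1 and Vwf, at 1149, 852 and 207 CPM, against 1833, 4803 and 2272 CPM. The groups include these cells and were not redrawn without them, so their part in these orders was not tested. The capillary gene Rgcc had 6.65, 8.72, 8.83 and 13.2 CPM in library 2, and 55.7, 16.2, 0 and 0 CPM in library 1. The groups had median depths of 4439, 3827, 3686 and 4098 UMIs in library 2 and 3097, 2893, 2389 and 2904.5 UMIs in library 1, so the group with 1 gene was the deepest in both. These values are a description, with no test.

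**Figure D5:**
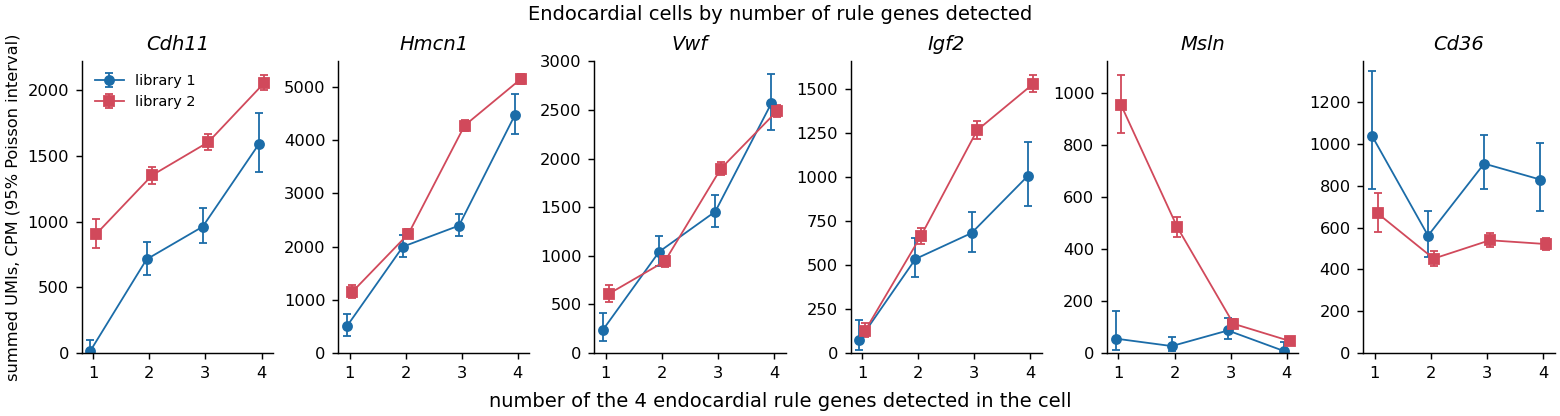
Level of 6 genes in endocardial cells grouped by the number of rule genes detected, 1 to 4, as CPM with exact Poisson intervals, for each library. Cdh11, Hmcn1, Vwf and Igf2 are highest in the group with all 4 genes, and Msln in library 2 is highest, at 951 CPM, in the group with 1. Mesothelial-marked cells are included.

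Fibroblasts needed 3 UMIs of their gate, no UMI of Pecam1, Cdh5, Ptprb and Emcn, and at most 2 UMIs of the endocardial rule genes. They could not meet the pericyte or macrophage gate, which endocardial cells could. Higher endothelial genes, and 9 of 9 macrophage markers that were higher, are thus partly built into the gates. Against fibroblasts, 1149 of 13688 genes tested were higher in endocardial cells at least 2-fold (8.39%) and 796 were lower (5.82%). At an adjusted p under 0.05 alone, 10.3% were higher and 7.64% lower. With library 2 left out the 2-fold counts were 366 and 194. Of the 8 named genes that were higher, Gm15587, an antisense transcript with the strand limit above, had the largest log2 difference, 7.06, with 2 UMIs in fibroblasts and a ratio of 146 (exact counting interval 39.8 to 1209.6). Vwf had 1451 and 1862 CPM in endocardial cells, against 11.5 and 21.7 CPM in fibroblasts (log2 difference 6.78, adjusted p = 9.17e-06). Bmx, Tie1, a receptor kinase of endothelium, and Nos3, endothelial nitric oxide synthase, gave 6.39, 6.18 and 6.13. The others were 4932413F04Rik, Gm43194 and Gm16226. Of the 5 that were lower, Aspg had the largest difference, -4.44, with 0 and 0.873 CPM, against 37.6 and 12.3 CPM. Abca6, Adamtsl2 and Col26a1 lay between, and Abca8a stood at 154 and 265 CPM, against 2318 and 2909 CPM (-3.68, adjusted p = 0.000157). Of the endocardial list, 16 of 22 genes were higher than in fibroblasts and 1, Tbx20, was lower. Of 25 capillary genes, 19 were higher in endocardial cells than in fibroblasts and 1 was lower, while 21 of the same 25 were lower than in capillary cells. The fibroblast gate excluded endothelial transcripts, so the first of these counts is a description only. Of 34 matrix genes, 6 were higher and 15 lower than in fibroblasts (median -0.38).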

How the data were processed

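The deposited values are UMI counts per gene and barcode, which the authors made with Cell Ranger 6.0.0 according to the header of the matrix. Tools named by the submitters' processing notes with no role or version are fastp, Trimmomatic, Seurat and edgeR. Here barcodes were put into 6 classes by marker genes, and their counts were summed per class and library, giving 12 sums. Classes of a library come from 1 suspension, so library was a block. edgeR 4.0.16 (R 4.3.3) fitted a quasi-likelihood model to all 12 sums, with TMM scaling and its default filter on low counts. DESeq2 1.42.0 served as an alternative. CPM divides summed counts by the sum's total. The test was also run on simulated counts for endocardial against capillary cells (13338 genes). These were drawn with the same spread for every gene and with no class difference that varied between libraries. Only genes above a set level in capillary cells were changed. The test called 100% of 50 genes raised by a log2 of 2 and 52% of 50 raised by 1. It called 96% of 50 lowered by 2, 28% of 50 lowered by 1 and 0.0533% of unchanged genes. Real class differences did vary between libraries. The rates therefore describe the simulated counts only, and do not measure power or false calls on the real data.

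The endocardial rule, the gene lists and the genes singled out were chosen with earlier results of these data known. Genes outside the rule were named as the 15 largest positive and 12 largest negative differences (8 and 5 against fibroblasts) among genes at an adjusted p under 0.05, of 1 sign in both libraries and with a mean of at least 20 CPM in the higher class, plus up to 4 called genes per list. Doublets were scored against simulated pairs, which marked 17.3% of barcodes in library 1 and 13.9% in library 2. They were kept, and an alternative left them out. No other cell map was used.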

Additional observations from a re-analysis of the deposited data

How the results depend on the processing

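Over 7 other choices of gate, depth and doublet treatment the endocardial share ran from 0.976% to 1.52% in library 1 and from 10.3% to 14.2% in library 2. Against capillary cells, 203 genes were higher and 224 lower with no replicate block, against 537 and 492 with the block on library; against fibroblasts, 723 and 418, against 1149 and 796. Leaving out 1 library each gave 150 to 374 higher and 145 to 320 lower against capillary cells, and, for endocardial vs fibroblast, genes higher numbered 366 to 917 and genes lower 194 to 632; the share was 1.31% to 12.9%. Without endocardial cells that also met another class's gate, 317 genes were higher than in capillary cells and 412 were lower. Of the named gene results under that setting, 69 kept direction and call, 23 lost the call and 5 turned direction. With no replicate block Vwf had an adjusted p of 0.0501 and Igf2 0.0509. Over 101 named gene results and 19 settings there were 1865 values, of which 1673 kept direction and call, 174 lost the call and 18 turned direction. The cause was not tested. Genes no longer tested in a setting have no value there and are not counted as lost. Some settings were run only against capillary cells. Without mesothelial-marked cells Muc16 gave -0.65 and Nrg2 -0.15. Without mesothelial- and smooth muscle-marked cells Muc16 gave -0.70, Nrg2 -0.26, Npnt -0.16 and Col3a1 -0.029. With Prox1 and Mmrn1 capillary cells left out as well, they gave -1.02, -0.46, -0.21 and -0.11, Wnt5a -0.069 and Pard6g 0.27, and with those capillary cells alone left out Pard6g also gave 0.27. Without cells at another gate Sema3e gave -0.080, Wnt5a -1.13, Dcn -0.96, Col1a2 -1.81 and Col3a1 -2.43, and that gate counts fibroblast genes. Library 1 held 583043 endocardial UMIs, against 5727154 in library 2, so its levels are less exact.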
